A study of Mus musculus with 24 samples.

Results

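Of the 762162 CpGs in the methylation table of the mouse dentate gyrus, 67078 lay on chromosomes 1 to 19 and were measured in all 19 mice, and 7126 of these (10.6%) had a mean methylation of 80% or more over the 19 mice. These 7126 highly methylated CpGs were chosen by their own measured values, as the unweighted mean over all mice, so their high level is a description and is not tested. Because the mean over all groups chose them, a CpG without any methylation in a whole group could not be among them. The last CpGs inside the threshold lay near Adamtsl1 (mean 80.001%) and Cldn19 (80.02%), and the first outside it near 4930439D14Rik (79.99%) and Pde4dip (79.99%). The other CpGs measured in every mouse were 8850 with an intermediate mean of 20% to under 80% and 51102 with a low mean under 20%.

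The study asked how age and housing change DNA methylation in the dentate gyrus, a hippocampal region that keeps making neurons in adults. Reduced representation bisulfite sequencing (RRBS), which reads cytosines near the sites of the restriction enzyme MspI, was performed on micro-dissected tissue of single female C57BL/6JRj mice without a transgene or drug. The groups compared here were 5 Young STD mice aged 1.5 months in standard cages, 7 Aged STD mice aged 14 months in standard cages and 7 Aged ENR mice aged 14 months that had lived in environmental enrichment, a large enclosure with toys, for over a year. The labels also describe Young ENR mice, which were not analysed here. The whole tissue was sequenced, so a change in methylation within cells and a change in the mix of cell types cannot be told apart.

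In mammals, methyl groups are placed on the cytosine of CpG pairs by DNA methyltransferases. Most CpGs of a neuron are methylated, above all in repeats, between genes and in gene bodies, whereas CpG-rich promoters of active genes are kept free of methylation. Dense methylation silences transposable elements, germline genes and the inactive copy of imprinted genes, and Tet enzymes start its removal.

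The sequences below show what such CpGs look like in the genome. They are 61 bases of GRCm38 (the build of mm10), 5′ to 3′ on the strand of the measured cytosine, with the CpG in capitals, and they belong to CpGs described further on. The first 3 windows had low values in some Aged STD mice, and coordinates follow each set.
Actrt2: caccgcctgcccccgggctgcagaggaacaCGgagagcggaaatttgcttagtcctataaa
n-R5s92: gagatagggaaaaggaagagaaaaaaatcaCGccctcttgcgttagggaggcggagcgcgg
Gm46392: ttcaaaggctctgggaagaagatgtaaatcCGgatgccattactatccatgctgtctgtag
These lie at chr4:154710017-154710077 (plus strand), chr9:115626147-115626207 (plus strand) and chr13:38864194-38864254 (minus strand). The next 5 windows had lower values in Young STD than in Aged STD mice.
Bmper: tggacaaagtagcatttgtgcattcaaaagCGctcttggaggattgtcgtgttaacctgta
AC163221.1: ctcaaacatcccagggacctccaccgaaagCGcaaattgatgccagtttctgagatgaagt
Wwox: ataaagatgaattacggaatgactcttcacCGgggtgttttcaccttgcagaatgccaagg
Rasal2: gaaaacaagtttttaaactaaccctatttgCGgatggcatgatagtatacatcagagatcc
Gm23644: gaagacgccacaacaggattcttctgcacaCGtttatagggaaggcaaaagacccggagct
They lie at chr9:23005702-23005762 (plus strand), chr19:52731200-52731260 (minus strand), chr8:115317862-115317922 (minus strand), chr1:157338836-157338896 (plus strand) and chr3:77202181-77202241 (plus strand). The following 2 windows hold CpGs that were at 100% in every mouse.
1700064J06Rik: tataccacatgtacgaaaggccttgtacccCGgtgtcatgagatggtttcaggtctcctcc
A930027H12Rik: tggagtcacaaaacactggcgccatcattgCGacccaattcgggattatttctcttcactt
They lie at chr10:119093956-119094016 (plus strand) and chr15:87289758-87289818 (minus strand). The last 2 windows are the first highly methylated CpGs in the promoters that held the most of them.
Gm10800: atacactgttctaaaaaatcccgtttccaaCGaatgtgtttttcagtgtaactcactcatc
Gm6440: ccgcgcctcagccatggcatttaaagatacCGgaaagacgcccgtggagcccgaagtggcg
They lie at chr2:98666363-98666423 (plus strand) and chr16:17137315-17137375 (plus strand). The Rasal2 and Gm46392 windows hold 1 CpG each, whereas the window of the pseudogene Gm6440 holds 7.

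Highly methylated CpGs lay mostly between genes and away from transcription starts. Intergenic sequence held 3920 of them (55.0%), introns 2125 (29.8%), exons 637 (8.94%) and promoters, taken as within 1000 bases of a transcription start, 444 (6.23%). Among all 67078 CpGs measured in every mouse, promoters held 51.9% and intergenic sequence 21.7%. The median distance to the nearest start was 16755.5 bases for the highly methylated CpGs and 880 bases for all, and 19.9% against 6.63% lay over 50 kb from any start. Sequence that the reference marks as repetitive held 2722 of the highly methylated CpGs (38.2%), compared with 11.7% of the intermediate and 4.86% of the low CpGs. Chromosome 3 had the highest share of such CpGs among those measured (517 of 3620, 14.3%) and chromosome 11 the lowest (299 of 4848, 6.17%). Shares are over CpGs, and neighbouring CpGs on a fragment are not independent.

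**Figure D1:**
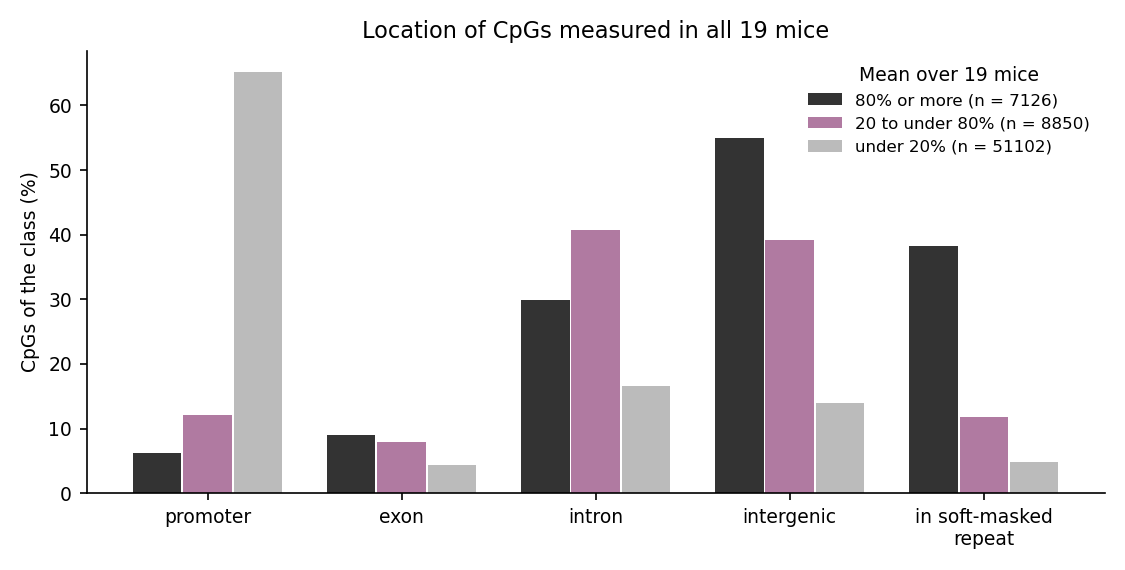
Bars give the percent of CpGs of each methylation class that lay in promoters, exons, introns, intergenic sequence and, as a separate count, repeats marked in the reference, for the 7126 highly methylated, 8850 intermediate and 51102 low CpGs measured in all 19 mice. Highly methylated CpGs were in promoters in 6.23% and in repeats in 38.2% of cases, whereas low CpGs were in promoters in 65.2% and in repeats in 4.86%.

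Like the intermediate CpGs they lay in CpG-poor sequence. The median was 5 CpGs in the surrounding 201 bases, against 4 for the intermediate, 10 for the low and 8 for all CpGs measured in every mouse, and the median GC content was 47.8% against 48.3%, 56.7% and 54.2%. The exceptions were 579 highly methylated CpGs in dense sequence with 12 or more CpGs in 201 bases, of which 412 (71.2%) were in repeats. In such dense sequence 33.9% of the CpGs in repeats were highly methylated, and 0.801% of those outside repeats. Reads from near-identical repeat copies can be placed at the wrong copy, and the part of this in the values was not tested.

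The highly methylated CpGs formed 4155 runs with under 100 bases between neighbours, and 2459 CpGs stood alone. They were assigned to 3540 genes, by overlap or by the nearest start. Wwox, a gene for an oxidoreductase that spans a very long stretch of chromosome 8, held the most, with 19 intronic CpGs in 8 runs (means of 84.2% to 99.6%). Mei1, which is needed for meiosis in germ cells, had 12 in its introns. Gm20388 had 17, the region near the processed pseudogene Gm48527 had 15 with group means of 96.3% (Young STD), 95.9% (Aged STD) and 95.9% (Aged ENR), and Dnmbp, which encodes a regulator of Cdc42, had 10 within 1 run. Gm26624 and Rasgef1b had 11 intronic CpGs each, and Gm12381 and the region near Klra5 10 each.

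Promoter windows with high methylation belonged to an unusual mix of genes. The window of 1000 bases reaches to both sides of an annotated start and comes before exons. It can thus hold the body of a short gene or pseudogene, and the part of such CpGs was not counted. Processed pseudogenes, which are copies of spliced transcripts, had 154 of the 444 promoter CpGs (34.7%) although they had 1.02% of all promoter CpGs measured in every mouse, and protein-coding genes had 137 (30.9%) against 84.2%. The promoters with the most were those of Gm10800 (11 CpGs, of which 10 in repeats), Gm6440 and Nop10 (8 each). Next came 4933415F23Rik, Gm42900, Gm8458 and Gm9202 with 6 each and Gm13328 with 5, whose group means were 88.1% to 99.4%. Taar4, which encodes a trace amine receptor of the olfactory system, had 6, with group means of 97.4% in Young STD, 97.2% in Aged STD and 97.1% in Aged ENR mice. The 6 promoter CpGs of the 5S ribosomal RNA gene n-R5s92 were the most variable of these promoters, where Young STD mice averaged 94.8% ± 1.26 (SD, n = 5), Aged STD mice 81.1% ± 22.7 (SD, n = 7) and Aged ENR mice 87.1% ± 11.5 (SD, n = 7).

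Single values were mostly at or near the upper limit. Of the 135394 values, 53.2% were exactly 100%, 34.8% were 80% to under 100%, 10.3% were 50% to under 80%, and 1.68% (2275 values) were under 50%, including 432 at 0%. The median of the CpG means was 93.9%, and 5155 CpGs (72.3%) had a mean of 90% or more. In every single mouse 1865 CpGs (26.2%) stayed at 80% or more, and 45 were at 100% in all 19 mice, of which the first by gene name were those of 1700064J06Rik, A930027H12Rik and AC102081.1. The number of reads behind a value is unknown beyond the study's minimum of 10, so no interval is given for single values.

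The median SD over the 19 mice was 9.49 points. Within groups the median SD was 6.15 points in Young STD, 8.82 in Aged STD and 7.57 in Aged ENR mice. The 5 libraries that stood apart, described in the next paragraph, were 3 Aged STD and 2 Aged ENR mice. The SDs were not taken without them, so no difference in spread between groups is read from these values. By CpG density, the median SD over mice was 5.56 points for CpGs with 12 or more CpGs in 201 bases and 10.5 points for those with 1 to 3. Those in repeats had 8.07 points and those outside 10.5 points. A CpG near the upper limit has little room to vary, and the mean was also higher in dense sequence (95.2% against 92.1%). The part of this limit in the differences in SD was not tested.

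Libraries stood apart in ways that touch all of the following comparisons. At intermediate CpGs the share of values at exactly 0% or 100% was 31.6% to 48.6% in Aged STD replicates 2, 3 and 4 and 35.9% to 38% in Aged ENR replicates 3 and 4, compared with 1.62% to 17.9% in the other 14 mice. These 5 libraries were all aged and all of the library series whose names in the labels begin with 27, in which 3 mice were Young STD, 4 were Aged STD and 4 were Aged ENR, whereas series 37 had 2, 3 and 3. The composition index of a library, the mean Young STD level of the CpGs measured in it, was 19.5% to 23.4% in Aged STD replicates 3, 4 and 6 and Aged ENR replicate 4 and 28.1% or more in the other 15 mice. For the highly methylated CpGs, class means, losses, splits and counts of ranges apart are also given without the 5 libraries and within each series. Single CpGs are given in part without the 5 libraries. Beyond these values the part of the libraries was not tested. The labels do not give litters or cages, so the spread is that between single mice as labelled. Per the study's methods, enriched mice lived together in an enclosure and standard mice in groups per cage. The SDs and SEs over mice do not cover differences between enclosures or cages.

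To ask whether the highly methylated CpGs as a class lost methylation with age or gained it with enrichment, their mean was taken in each mouse. Young STD mice had means of 92.2%, 91.8%, 92.1%, 93.6% and 93.4%. Aged STD mice ranged from 89.9% to 93.9% with a median of 92.5%, and Aged ENR mice from 92.2% to 94.3% with a median of 92.9%. The 3 groups overlapped. Young STD mice averaged 92.6% ± 0.813 (SD, n = 5), Aged STD mice 92.3% ± 1.40 (SD, n = 7) and Aged ENR mice 93.2% ± 0.675 (SD, n = 7). The difference was -0.302 points for Aged STD minus Young STD, 0.865 points for Aged ENR minus Aged STD and 0.563 points for Aged ENR minus Young STD, all less than the SD of the Aged STD mice. These means carry no test because they were taken over CpGs selected on the same mice.

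The age difference of the class changed sign with the library series, at 0.423 points in series 27 and -1.37 points in series 37, and it was 0.102 points without Aged STD replicate 6, which had the lowest mean. The housing difference was 0.461 points without the same mouse, 0.451 points in series 27 and 1.42 points in series 37, and Aged ENR minus Young STD was 0.874 and 0.0505 points. Leaving out the 5 libraries gave -0.306 points with age, 0.961 with housing and 0.655 between Aged ENR and Young STD mice. A model holding the index of composition gave 0.584, 0.373 and 0.896 points. For comparison, the intermediate CpGs differed by -8.96 points with age and 3.82 points with housing. Each difference had the same sign in series 27 and 37 (-7.83 and -11.0 with age, 3.82 and 3.81 with housing). Differences of the intermediate CpGs were not taken without the 5 libraries. The highly methylated CpGs contributed -0.0320 points to the age difference of -1.92 points over all 67078 CpGs, and the intermediate CpGs -1.18 points. With CpGs chosen on Aged ENR mice alone, so that the mice compared did not enter the choice, the age difference was -0.795 points over 7297 CpGs. With CpGs chosen on Young STD mice alone, the housing difference was 1.41 points over 7426 CpGs.

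**Figure D2:**
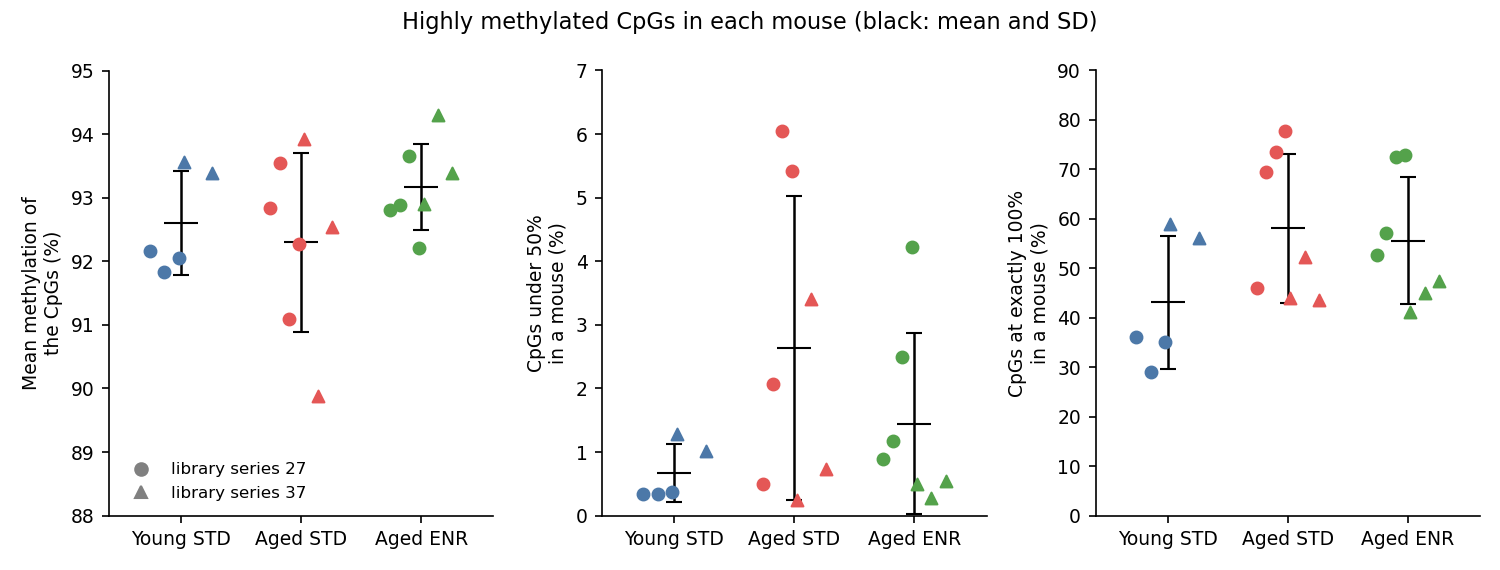
Each point is 1 mouse, with circles for library series 27 and triangles for series 37, and black marks give the group mean and SD. The left panel shows the mean of the 7126 CpGs (axis from 88% to 95%), the middle panel the percent of them under 50% in that mouse and the right panel the percent at exactly 100%. The 3 groups overlap in all panels, and Aged STD mice reach from 0.253% to 6.05% of CpGs under 50%.

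Losses in single mice were more common in some aged mice. The share of the 7126 CpGs that was under 50% in a mouse was 0.337%, 0.337%, 0.365%, 1.29% and 1.02% in the 5 Young STD mice. It ranged from 0.253% to 6.05% (median 2.08%) in Aged STD and from 0.281% to 4.22% (median 0.898%) in Aged ENR mice. The aged groups thus held both the mice with the fewest and the mice with the most losses. Means were 0.671% ± 0.455 (SD, n = 5), 2.63% ± 2.39 (SD, n = 7) and 1.45% ± 1.43 (SD, n = 7). Aged STD thus exceeded Young STD mice by 1.96 points, less than the SD of the Aged STD mice and more than that of the Young STD mice.

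Aged STD replicates 3, 4 and 6 and Aged ENR replicate 4 held 59.8% of all losses, and these were the 4 mice with the lowest composition index. A model with that index gave differences in losses of 0.490 points with age, -0.291 with housing and 0.178 between Aged ENR and Young STD mice. The part of composition in the losses was not tested beyond this. Without the 5 libraries with many values at the limits the age difference in losses was 0.554 points, the housing difference -0.542 points (-1.19 with all mice), and Aged ENR minus Young STD 0.0112 points (0.777 with all mice). In series 27 and 37, respectively, the age difference was 3.17 and 0.306 points, the housing difference -1.31 and -1.02 points, and Aged ENR minus Young STD 1.85 and -0.713 points. Of the 7126 CpGs, 5313 (74.6%) were at 50% or more in every mouse, 1421 were below in 1 mouse, 329 in 2 mice, 56 in 3 and 7 in 4. Under 50% in 2 or more mice of a group were 125 CpGs in Aged STD, 46 in Aged ENR and 10 in Young STD mice. A mean of 80% over the same mice leaves room for few losses at a CpG, so nothing is read from these numbers. Over CpGs chosen on the group not compared, losses differed by 2.74 points with age, -1.88 points with housing and 0.827 points between Aged ENR and Young STD mice.

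**Figure D3:**
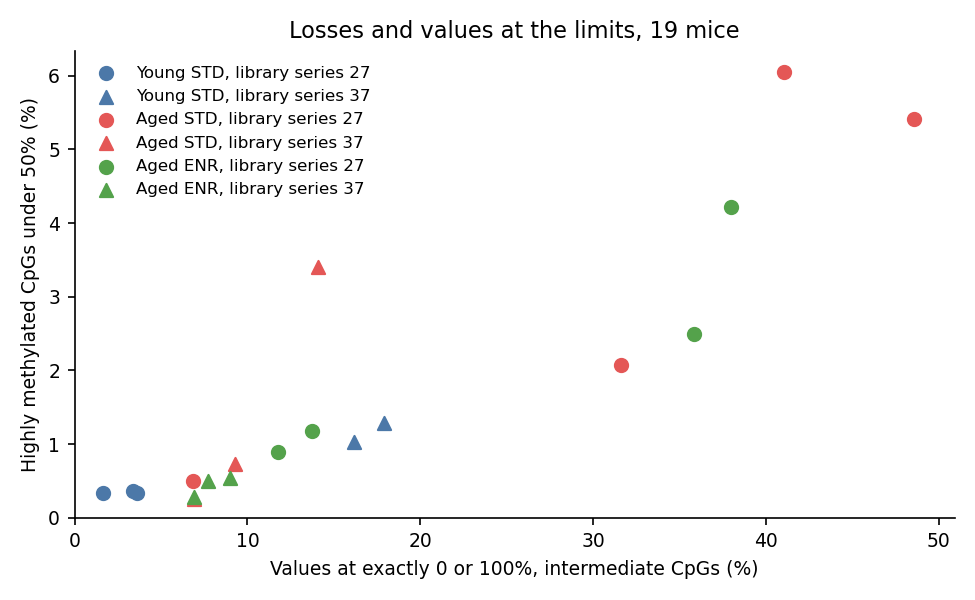
Each point is 1 of the 19 mice. The horizontal axis gives the percent of values at exactly 0% or 100% at the 8850 intermediate CpGs and the vertical axis the percent of the 7126 highly methylated CpGs under 50%. The 5 libraries over 30% on the horizontal axis have 2.08% to 6.05% of CpGs under 50%, and Aged STD replicate 6 lies apart from the others at 14.1% and 3.41%.

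Values at exactly 100% moved with the library series. Young STD mice had 43.1% ± 13.5 (SD, n = 5) of their values there, Aged STD mice 58.1% ± 15 (SD, n = 7) and Aged ENR mice 55.6% ± 12.8 (SD, n = 7). Aged STD minus Young STD was 33.2 points in series 27 and -11.0 points in series 37. A loss and a value of 100% can thus both be frequent in one library: Aged STD replicate 4 had 5.42% of CpGs under 50% and 77.7% at 100%, and its mean was 92.3%.

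Where a CpG was under 50% in a mouse, its opposite strand was mostly high where measured. It was under 50% more often than where the CpG was high. The opposite strand of the same CpG, which is read separately, was in the table for 572 of the 7126 CpGs, with a median of the means of 93.4%. Of these opposite strands, 513 (89.7%) had a mean of 80% or more. At the 118 values under 50% for which the mouse also had the opposite strand, the opposite strand averaged 83.6% (median 100%) and was itself under 50% in 13.6%, against 3.97% where the highly methylated CpG was at 80% or more. Adjacent highly methylated CpGs read from the same end of a fragment were also compared. The first was under 50% in 15.3% of the cases in which the second was, and in 1.03% of the other cases. Both CpGs of a pair were chosen for a high mean, so a mostly high neighbour follows from the choice.

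No highly methylated CpG passed the test of single CpGs in any comparison. In limma, with Benjamini-Hochberg adjustment over all CpGs tested in the table, a CpG was called where the groups differed by over 25 points at an adjusted p under 0.05. For the age comparison (Aged STD minus Young STD) 0 of 7020 highly methylated CpGs were called, with 0% called among all 527597 CpGs tested, and the smallest adjusted p among the highly methylated CpGs was 0.689. For Aged ENR against Aged STD mice 0 of 6988 were called (0% of all, smallest adjusted p among them 0.769), and for Aged ENR against Young STD mice 0 of 7005 (0% of all, smallest adjusted p among them 0.659). The remaining CpGs were invariant over the mice compared and could not be tested.

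Direction could be described from the CpGs with an unadjusted p under 0.05 in limma. With age, 20 highly methylated CpGs (0.285%) were lower and 256 (3.65%) higher in Aged STD mice, whereas among all CpGs tested 3.33% were lower and 1.09% higher. The mean that chose these CpGs was taken over 14 aged and 5 young mice, so a CpG low in aged mice was left out more readily than one low in young mice, and nothing is read from the direction of the split. The split differed between sets of libraries. Without the 5 libraries named above it was 116 lower (1.67%) and 99 higher (1.42%), against 2.36% and 1.55% of all CpGs tested. In series 27 it was 11 lower (0.162%) and 497 higher (7.32%), against 4.12% and 1.91% of all, and in series 37 143 lower (2.25%) and 184 higher (2.90%), against 6.69% and 2.85% of all. The cause was not tested. With the composition index in the model it was 74 lower (1.05%) and 130 higher (1.85%), against 2.12% and 2.57% of all. The 256 higher CpGs averaged 84.4% in Young STD, 97.4% in Aged STD and 92.0% in Aged ENR mice. For 22 of them the opposite strand was in the table, and there the age difference averaged 0.975 points, with 15 of 22 higher, against 13.7 points on the strand that chose them. The median age difference of all 7126 CpGs was 0 points, against -0.563 points over all CpGs tested.

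With housing, 72 highly methylated CpGs (1.03%) were lower and 70 (1.00%) higher in Aged ENR mice, relative to Aged STD, at an unadjusted p under 0.05 in limma, against 0.798% lower and 1.45% higher among all CpGs tested. Leaving out the 5 libraries gave 48 lower (0.694%) and 154 higher (2.23%), against 1.49% lower and 1.75% higher among all. In series 27 it was 69 lower (1.08%) and 42 higher (0.656%), against 1.07% and 1.52%, and in series 37 98 lower (1.47%) and 111 higher (1.67%), against 2.14% and 3.59%. Adjusted for composition it was 61 lower (0.873%) and 87 higher (1.24%), against 1.78% and 1.35%, so that the split over all CpGs turned. Single libraries also turned this split, while over all CpGs tested more were higher than lower each time. Without Aged ENR replicate 4 it was 108 lower (1.55%) and 45 higher (0.645%), against 0.744% and 1.74% of all. Without Aged ENR replicate 3 it was 104 (1.49%) and 44 (0.631%), against 0.801% and 1.56%. Without Aged STD replicate 4 it was 44 (0.631%) and 114 (1.63%), against 0.951% and 1.34%. No direction is therefore read from it. For Aged ENR against Young STD mice it was 30 lower (0.428%) and 261 higher (3.73%), against 2.56% lower and 1.4% higher among all. With the 5 libraries left out this was 51 lower (0.730%) and 137 higher (1.96%), against 2.02% and 1.49%. It was 13 lower (0.191%) and 424 higher (6.23%) in series 27, against 3.43% and 2.09%, and 156 lower (2.44%) and 190 higher (2.97%) in series 37, against 5.73% and 3.56%. Adjusted for composition it was 53 lower (0.757%) and 158 higher (2.26%), against 2.27% and 2.35%. The choice of CpGs by a mean over more aged than young mice bears on this split too. This comparison shares the Young STD mice with the age comparison. The opposite strand was in the table for 21 of its higher CpGs, with 10 of 21 higher there. It was in the table for 2 of its lower CpGs, with 0 of 2 lower there. With housing, 4 of 7 lower and 4 of 5 higher CpGs had the same direction on the opposite strand.

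**Figure D4:**
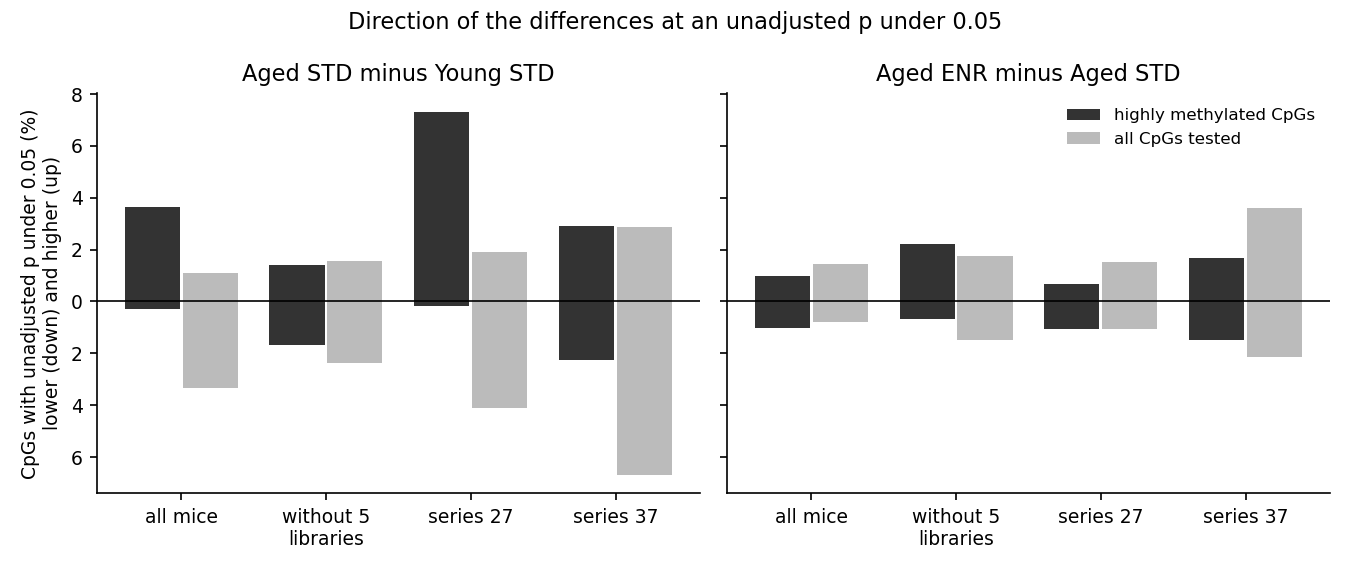
Bars give the percent of CpGs with an unadjusted p under 0.05 in limma that were higher (upwards) or lower (downwards), for the highly methylated CpGs (dark) and all CpGs tested (light), in the age (left) and housing (right) comparison. With all mice, 3.65% of the highly methylated CpGs were higher with age and 0.285% lower, while without the 5 libraries 1.42% were higher and 1.67% lower.

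The 8 CpGs with the lowest age differences were high in Young STD mice and very unequal among Aged STD mice. The lowest was a CpG on chromosome 18 (18:42407610, plus strand), 12535 bases from the start of Pou4f3, a transcription factor of sensory neurons. It was at 100%, 100%, 100%, 100% and 87.6% in Young STD mice, at 0% to 100% (median 75%) in Aged STD mice and at 67.4% to 100% (median 100%) in Aged ENR mice. Its difference was -37.2 ± 17.1 points (SE) with age and 31.8 ± 15.2 points (SE) with housing, and the groups overlapped.

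The CpG near Actrt2, which encodes an actin-related protein of sperm, was at 92.3%, 87.8%, 85.1%, 100% and 100% in Young STD, at 0% to 100% (median 63.6%) in Aged STD and at 81.1% to 100% (median 93.4%) in Aged ENR mice (age difference -31.5 ± 13.8 points, SE). A promoter CpG of n-R5s92 differed by -30.4 ± 15.5 points (SE), an intronic CpG of the lncRNA gene Gm46392 by -29.9 ± 17.2 points (SE) and a CpG 28745 bases from a start of Trerf1, a transcriptional regulator, by -29.4 ± 13.1 points (SE). CpGs near Gm26872, Gm43664 and Gm23590 differed by -28.6, -28.4 and -28.2 points. At all 8 the lowest Aged STD mouse was replicate 2, 3 or 4, and without the 5 libraries the 8 age differences ran from -21.8 to -0.655 points.

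The 8 CpGs with the highest age differences were the reverse, with low values in some Young STD mice. The CpG 217344 bases from the start of Bmper, a modulator of BMP signalling, was at 82.1%, 44.6%, 75.3%, 76.7% and 41.9% in Young STD, at 80.6% to 100% (median 100%) in Aged STD and at 37.5% to 100% (median 79.0%) in Aged ENR mice. Its age difference was 31.2 ± 7.95 points (SE), and its housing difference was -18.9 ± 9.68 points (SE). Aged STD values at this CpG overlapped the Young STD range only at its upper end, and Aged ENR values spanned both.

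At the intergenic CpG near the lncRNA AC163221.1, Young STD mice were at 71.4%, 81.6%, 77.4%, 82.4% and 32.5%, all 7 Aged STD mice were at 100%, and Aged ENR mice were at 90.2% to 100% (median 100%). The difference was 30.9 ± 7.49 points (SE) with age and -1.40 ± 1.96 points (SE) with housing. In an intron of Wwox (chr8:115317892, minus strand) Young STD mice were at 93.3%, 84.9%, 40%, 71% and 53.6%, Aged STD mice at 94.7% to 100% (median 100%) and Aged ENR mice at 88.7% to 100% (median 100%). Both CpGs were higher in the aged mice of either housing, and without the 5 libraries their age differences were 30.9 and 30.1 points. Of the 19 highly methylated Wwox CpGs 16 were higher and 3 lower in Aged STD mice, and their mean was 92.9% ± 2.03 (SD, n = 5), 97.2% ± 2.76 (SD, n = 7) and 95.9% ± 3.43 (SD, n = 7).

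The remaining 5 of these CpGs, near Gm43090, Gm42498, Tex50, Gm49250 and App, which encodes the amyloid precursor protein, had age differences of 28.5 to 29.5 points. Young STD replicate 4 was at 5.56% near Gm43090 and replicate 2 at 22.2% at the promoter CpG of Tex50, whereas at Gm42498 4 of the 5 Young STD mice were at 46.7% to 62.2% and at App 2 of 5 were at 22.2% and 44.4%. The Gm49250 CpG was higher in Aged STD mice by 29.2 points, but on its opposite strand the mean was 80.7% in 3 Young STD and 43.1% in 5 Aged STD mice, the reverse direction. The App CpG lay 126713 bases from the nearest start. Without the 5 libraries the 8 highest differences ran from 23.6 to 37.1 points.

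**Figure D5:**
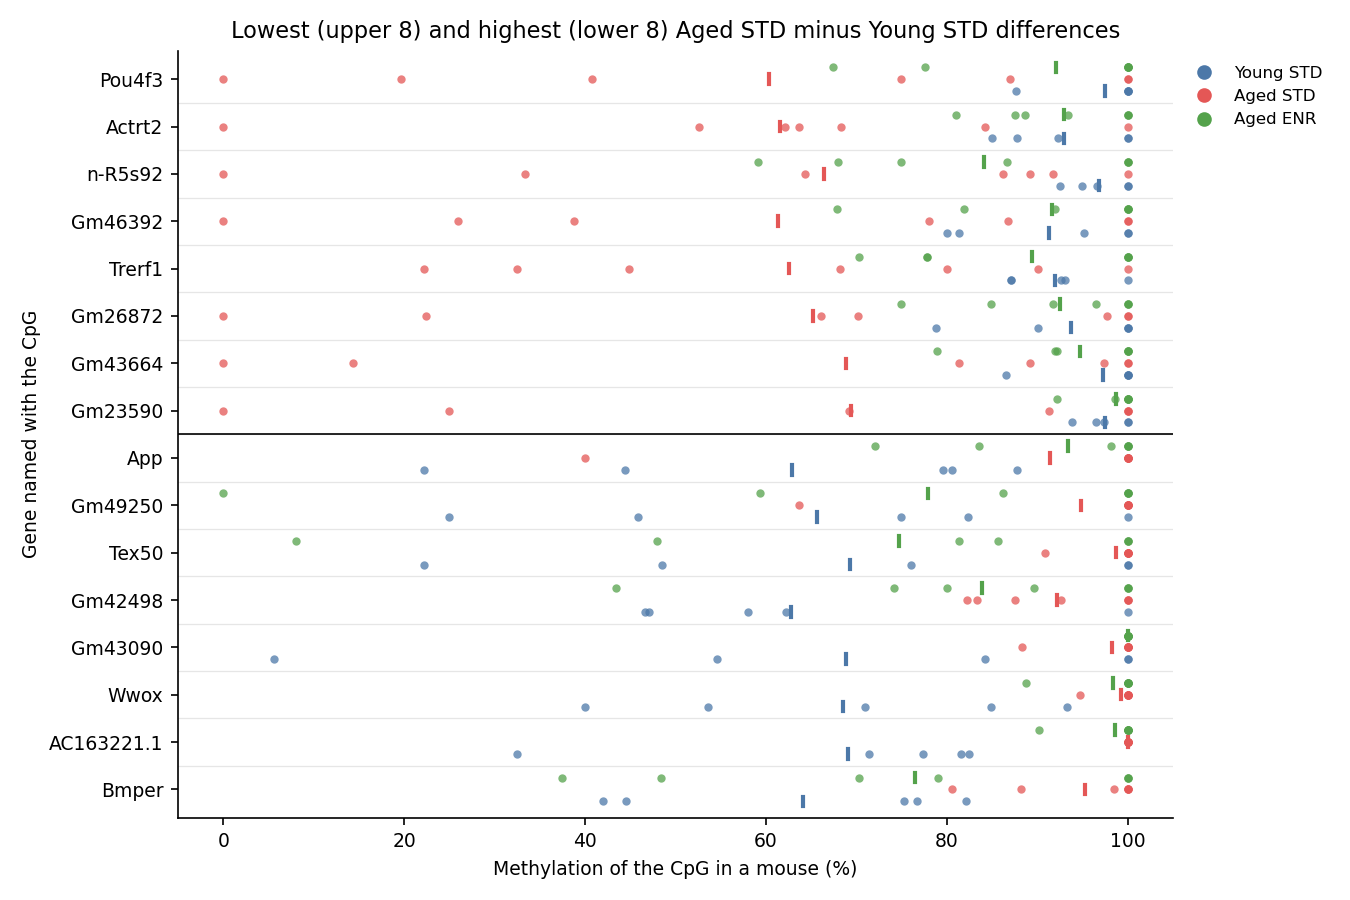
Each point is the methylation percentage of 1 mouse at the CpG named on the vertical axis, and short vertical bars are group means. The upper 8 rows have the lowest and the lower 8 rows the highest Aged STD minus Young STD differences. In 7 of the 8 upper rows Aged STD mice spread from 0% to 100%, and in the lower rows Young STD mice reach down to 5.56%.

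Group ranges did not overlap with age at 24 of the 7126 CpGs, all higher in Aged STD mice (0.337%), and at 0 CpGs lower, while 0.0553% of all CpGs with values in every mouse of both groups were higher without overlap and 0.301% lower. The choice by the mean over more aged than young mice bears on this count too. Without the 5 libraries, ranges were apart at 51 CpGs higher (0.716%) and 41 lower (0.575%), against 0.429% higher and 0.763% lower among the 67078 CpGs measured in every mouse. In series 27 (4 against 3 mice) they were apart at 532 higher (7.47%) and 17 lower (0.239%), against 1.13% and 3.8%, and in series 37 (3 against 2 mice) at 387 higher (5.43%) and 556 lower (7.80%), against 3.68% and 7.04%. Besides AC163221.1 and Wwox, the largest were in introns of Rasal2, a regulator of Ras signalling (22.9 ± 5.25 points, SE), near the snoRNA gene Gm23644 (22.4 ± 4.57), in the promoter of Ddr2, a collagen receptor (22.3 ± 5.04) and in a coding exon of F2r, the thrombin receptor (20.9 ± 4.54). At F2r (chr13:95604138, plus strand) Young STD mice were at 93.0%, 74.8%, 69.0%, 67.7% and 88.5%, Aged STD mice at 97% to 100% and Aged ENR mice at 79.7% to 100%. CpGs near Gm28559 and B020031H02Rik and in introns of Nostrin and Rnf13 differed by 16.3 to 18.9 points. On the opposite strand, Gm23644 averaged 86.9% in 4 Young STD and 92.7% in 6 Aged STD mice, Nostrin 80.8% in 5 and 95% in 6, and B020031H02Rik 91.7% in 3 and 100% in 3.

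With housing, ranges were apart at 1 CpG, higher in Aged ENR mice (0.0140%), and at 0 lower, against 0.0104% higher and 0.00313% lower among all CpGs with values in every mouse of both groups. This CpG lay in an intron of Ptges, the prostaglandin E synthase (chr2:30896816, plus strand). It was at 82.3%, 86.7%, 86.1%, 79.1% and 79.1% in Young STD, at 51.4% to 84.4% (median 81.1%) in Aged STD and at 85.4% to 99.2% (median 90.4%) in Aged ENR mice, a housing difference of 17.6 ± 5.54 points (SE). Aged STD replicates 4 and 7 were lowest, and without the 5 libraries the difference was 14.8 points. Over the class, leaving out the 5 libraries gave ranges apart at 58 CpGs higher (0.814%) and 12 lower (0.168%), against 0.285% and 0.252% of the CpGs measured in every mouse. In series 27 there were 19 higher (0.267%) and 31 lower (0.435%), against 0.447% and 0.261%, and in series 37 242 higher (3.40%) and 196 lower (2.75%), against 2.10% and 1.58%.

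The lowest housing differences were near Gm22223 (-31.7 ± 14.0 points, SE), in the promoters of Zfp74, a zinc finger gene (-27.4 ± 12.8), and Snord116l17, of the imprinted Snord116 cluster (-26.8 ± 12.0), and in an intron of Pax5, a B-cell transcription factor (-26.5 ± 9.98). At Zfp74 Young STD mice were at 100%, 92.0%, 100%, 100% and 97.9%, Aged STD mice at 50% to 100% (median 100%) and Aged ENR mice at 27.8% to 100% (median 48.8%). Methylation there was low in most Aged ENR mice but the ranges overlapped. The highest housing differences, besides the Pou4f3 CpG, were near Gm26964 (35.9 ± 12.7), Gm33838 (33.1 ± 13.2) and Cyp2c70 (31.5 ± 12.1), where all 7 Aged ENR mice were at 100% and Aged STD mice at 0% to 100% (median 69.2%). Without the 5 libraries the 4 highest differences were 30.1 points (Cyp2c70), 23.8 (Gm26964), 18.6 (Gm33838) and 13.3 (Pou4f3). The 4 lowest were -23.0 points (Gm22223), -20.2 (Zfp74), -19.0 (Pax5) and -7.19 (Snord116l17).

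Between Aged ENR and Young STD mice, ranges were apart at 18 CpGs, all higher in Aged ENR mice (0.253%), and at 0 lower, against 0.0661% higher and 0.209% lower among all CpGs with values in every mouse of both groups. With the 5 libraries left out there were 27 higher (0.379%) and 7 lower (0.0982%), against 0.167% and 0.425% of the CpGs measured in every mouse. In series 27 there were 487 higher (6.83%) and 20 lower (0.281%), against 1.16% and 3.23%, and in series 37 437 higher (6.13%) and 535 lower (7.51%), against 3.83% and 6.45%. The largest was again AC163221.1 (29.5 points), followed by Gm7648 (24.0) and Tmprss2, a membrane serine protease gene (19.4), where Young STD mice were at 84.3%, 85.4%, 76.8%, 79.2% and 54.1% and Aged ENR mice at 87.3% to 100% (median 96.8%). Gm10319, Tas2r120, 1700042D02Rik, Gm8357, Gm43155 and 1110025M09Rik differed by 10.1 to 14.4 points. Regardless of overlap, the highest differences were at Muc3, a mucin (33.5 points), Gm43090 (31.1), App (30.5) and Wwox (29.8), and the lowest at Zfp74 (-38.1), Gm19744 (-31.1), Pax5 (-30.6) and Gm5857 (-30.1). Leaving out the 5 libraries gave 27.9 to 31.8 points for these 4 highest, and for the 4 lowest -33.0 (Zfp74), -30.9 (Pax5), -15.4 (Gm19744) and -4.21 points (Gm5857). Aged STD mice were at 0% to 100% at Gm7648 and Tmprss2.

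The CpGs with the largest spread over the 19 mice had single mice far below the rest. An intronic CpG of Cdh13, a cadherin, had an SD over mice of 33.0 points, with all 5 Young STD mice at 100%, Aged STD mice at 0% to 100% (median 85.7%), and 1 Aged ENR mouse at 0% while the other 6 were at 100%. An intronic CpG of Syne2, a linker of nucleus and cytoskeleton, had an SD of 32.5 points, with Young STD mice at 100%, 100%, 80.8%, 100% and 0%. At Phc2, a Polycomb gene, Aged STD mice were at either 0% (2 mice) or 100% (5 mice). Olfr1317, Mettl24, Gm5857, Gm9049 and Gm48093 had SDs of 31 to 31.6 points. At each of these 8 CpGs at least 1 of the 5 libraries with many values at the limits was at 0% to 10%, such as Aged STD replicate 4 and Aged ENR replicate 4 at Cdh13, Aged ENR replicate 3 at Syne2 and Aged STD replicate 2 at Phc2. Other libraries were at 0% as well at Syne2 (Young STD replicate 5), Phc2 (Aged STD replicate 6), Mettl24 (Aged STD replicate 7) and Gm9049 (Aged ENR replicate 2).

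In the gene groups relevant to the tissue and to methylation, no highly methylated CpG was called in limma. Their shares are set beside the 10.6% of all CpGs measured in every mouse that were highly methylated, with germline genes above it and the other lists below. Germline genes had 27, or 50% of the 54 CpGs of these genes measured in every mouse, in 10 of 16 genes. Only 1 of their 15 promoter CpGs was among the 27, and 12 of the 27 were in introns of Mei1, whereas promoters held 51.9% of all CpGs behind the 10.6%, so the shares are not matched for position. With age 14 were lower and 12 higher (median -0.00612 points). At an unadjusted p under 0.05 in limma 2 were higher, both in Mei1, and 0 lower. Among all highly methylated CpGs 3.65% were higher at that level, and among all CpGs tested 1.09%. Of the 27, Mei1 had 12, where Young STD mice averaged 91.0% ± 1.79 (SD, n = 5), Aged STD mice 96.4% ± 2.38 (SD, n = 7) and Aged ENR mice 93.9% ± 3.88 (SD, n = 7). Ldhc, Tdrd5 and Tdrd6, genes used in spermatogenesis, had 2 each. Imprinted genes, of which one parental copy is silent, had 11 (8.8% of 125 CpGs), with 7 lower and 4 higher with age (median -2.49 points). The noncoding H19 averaged 94.1%, 92.1% and 97.8% in Young STD mice and in the Aged STD and Aged ENR groups at its 2 exonic CpGs, and the retrotransposon-derived Peg10 99.3%, 98.6% and 97.3%. The 2 intronic CpGs of Snrpn differed by -5.58 points with age and the 2 near Ddc by 0.916 points.

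Granule neuron and plasticity genes had 15 (3.96% of 379 CpGs), with 8 lower and 6 higher with age (median -0.509 points). Thrb, a thyroid hormone receptor, had 4, Dsp, a desmosome gene that marks granule neurons, 3 in exons, and Ntrk2, the receptor of BDNF, 3 in exons, with 91.8%, 92.2% and 88.5% in Young STD mice and in the Aged STD and Aged ENR groups. The 2 CpGs near Creb1, a transcription factor of activity-dependent genes, averaged 99.4% ± 1.40 (SD, n = 5), 89.0% ± 18.5 (SD, n = 7) and 93.6% ± 12.2 (SD, n = 7), a difference of -10.4 points with age. Glial and vascular markers had 8 (7.27% of 110 CpGs), with 3 lower and 5 higher with age (median 6.56 points), in Tek and Kdr, receptors of endothelial cells, Acta2, of smooth muscle, and Mog, of myelin. The 3 Tek CpGs averaged 83.5% in Young STD, 90.2% in Aged STD and 84.2% in Aged ENR mice, the 2 Acta2 CpGs 75.9%, 83.8% and 88.2%, and the 2 Kdr CpGs 79.8%, 93.2% and 85.7% (age differences of 6.63, 7.84 and 13.4 points). The Mog CpG in a coding exon differed by -17.0 points with age and was at 91.3% ± 19.4 (SD, n = 5), 74.3% ± 38.7 (SD, n = 7) and 85.8% ± 23.5 (SD, n = 7).

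Genes of the methylation machinery had 7 (4.73% of 148 CpGs), with 6 lower and 1 higher with age (median -4.93 points). All 6 lower CpGs were in introns of Tet1, a demethylation enzyme, where Young STD mice averaged 95.8% ± 0.730 (SD, n = 5), Aged STD mice 89.8% ± 5.84 (SD, n = 7) and Aged ENR mice 93.2% ± 5.41 (SD, n = 7). The seventh was in Dnmt3a, a methyltransferase, at 87.2%, 88.7% and 86.9%. Of the candidate genes Tiam1, Tshz2 and Cux2, which the study picked from these libraries, Tshz2, a zinc finger gene, had 4 intronic CpGs, all lower with age (97.1% ± 3.67 (SD, n = 5), 90.9% ± 5.86 (SD, n = 7) and 91.5% ± 5.92 (SD, n = 7); median -5.93 points). At an unadjusted p under 0.05 in limma with age, the granule neuron and glial lists had 1 higher CpG each. The imprinted, machinery and candidate lists had 0. The counts of these lists are descriptions, set beside the median of 0 points over all highly methylated CpGs.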

How the data were processed

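Methylation was measured by RRBS in single mice. Per the labels and the study's methods, reads were cleaned with Cutadapt through Trim Galore and aligned to mm10 with Bismark, and the authors kept cytosines in methylKit with at least 10 reads, below an upper coverage limit, in at least 3 mice per group. The deposited values are the percent of reads methylated at each cytosine and strand, without read numbers, so depth is unknown and no interval per value can be given. Per mouse, 489796 to 725449 CpGs had a value. The study's methods mention no molecular identifiers of reads.

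The highly methylated CpGs, the gene lists and the named CpGs were chosen with earlier results of these data known. Percentages were compared per CpG in limma 3.58.1 (R 4.3.3), because the test on reads used in the study needs read numbers. The variance prior was trended on mean methylation, tests were two-sided, and Benjamini-Hochberg adjustment ran over all CpGs tested. The minimum of 3 mice per group set by the authors held with all mice. Fits on fewer mice set no minimum, and series 37 had 2 Young STD mice. The SE of a difference is limma's moderated standard error. Gene features came from GENCODE M21 basic (55450 genes) and sequences from RefSeq GRCm38, with 1-based positions. A CpG was given the first of promoter, exon, intron and intergenic that held it.

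Named CpGs were those with the 8 lowest and 8 highest age differences, the 4 lowest and 4 highest of the other comparisons, up to 10 per comparison without overlap of ranges, the 8 largest SDs, the 10 genes with most CpGs overall and in promoters, and the genes with most CpGs of each list. Of the CpGs named by their values, 1 is not reported here. Replicate numbers were used only to name mice. Alternatives covered thresholds, covariates, the replicate block and single mice left out, and, chosen after seeing the data, library series, 5 libraries and CpGs chosen on the group not compared. The fitting steps were tested on simulated data.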

Additional observations from a re-analysis of the deposited data

Results flagged for a closer look

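In 47 of 168 groups of mice at the 56 named CpGs examined (28.0%), 1 mouse lay so far from the rest of its group that its gap to the nearest mouse was above the 95% critical value of Dixon's test, which chance alone gives in about 1 of 20 groups of normally distributed values. These values pile up at the limit of 100%, where the ratio passes at any gap once the other mice are all at 100% and a mouse can stand apart only at the low end, so the share cannot be read against that rate. The 47 groups belonged to 36 CpGs, and in all 47 the mouse apart was the lowest. Many of these CpGs were named for a large difference or spread, so the count is a description. Among the 9 groups of the per-mouse summaries (mean, share under 50% and share at 100%), 0 were flagged.

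Among Young STD mice, 1 mouse was below the others, which were all at 100%, at Pou4f3 (87.6% in replicate 5), Gm43664 (86.6% in replicate 1), Cyp2c70 (65.2% in replicate 4), Gm19744 (98% in replicate 3) and Gm6440 (81.8% in replicate 1). The same held at Nop10 (87.5% in replicate 2). The others of the Young STD group were not all at 100% at AC163221.1 (32.5% in replicate 5, the others from 71.4%), Zfp74 (92.0% in replicate 2, the others from 97.9%), Pax5 (69.5% in replicate 3, the others from 99%) and Tmprss2 (54.1% in replicate 5, the others from 76.8%). Likewise at Syne2 (0% in replicate 5, the others from 80.8%) and Olfr1317 (29.4% in replicate 4, the others from 85.4%), 1 Young STD mouse was apart.

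Among Aged STD mice, 1 mouse was below the others, which were all at 100%, at Wwox (94.7% in replicate 6), Gm43090 (88.3% in replicate 1), Tex50 (90.9% in replicate 6), Gm49250 (63.6% in replicate 4) and App (40% in replicate 3). The same held at F2r (97% in replicate 5) and Gm43155 (86.7% in replicate 7). The others of the Aged STD group were not all at 100% at Cyp2c70 (0% in replicate 4, the others from 60%), Gm5857 (50% in replicate 7, the others from 89.2%), Muc3 (57.1% in replicate 7, the others from 83.3%) and Rasal2 (89.7% in replicate 6, the others from 97%). Likewise at Ddr2 (81.9% in replicate 6, the others from 92.5%), Gm28559 (95% in replicate 5, the others from 98.9%), Gm10319 (36.7% in replicate 4, the others from 81.2%) and Tas2r120 (50% in replicate 2, the others from 98.0%), 1 Aged STD mouse was apart. Likewise at 1110025M09Rik (0% in replicate 3, the others from 76.2%), Olfr1317 (10% in replicate 3, the others from 75%), Gm9049 (0% in replicate 3, the others from 80.9%) and Gm6440 (94.6% in replicate 1, the others from 98.2%), 1 Aged STD mouse was apart.

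Among Aged ENR mice, 1 mouse was below the others, which were all at 100%, at AC163221.1 (90.2% in replicate 6), Wwox (88.7% in replicate 7), Gm7648 (92% in replicate 3), Gm43155 (98.8% in replicate 5) and Cdh13 (0% in replicate 4). The same held at Olfr1317 (7.14% in replicate 4) and Phc2 (80.8% in replicate 5). The others of the Aged ENR group were not all at 100% at Gm43664 (78.9% in replicate 2, the others from 92.0%), Gm23590 (92.2% in replicate 5, the others from 98.6%), Gm49250 (0% in replicate 5, the others from 59.3%) and Snord116l17 (0% in replicate 4, the others from 61.3%). Likewise at Ddr2 (44.1% in replicate 3, the others from 78.5%), Nostrin (58.5% in replicate 3, the others from 84.1%), B020031H02Rik (29.4% in replicate 4, the others from 80.3%) and Mettl24 (0% in replicate 4, the others from 73.9%), 1 Aged ENR mouse was apart. Likewise at Gm9049 (0% in replicate 2, the others from 92.1%), 1 Aged ENR mouse was apart.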

How the results depend on the processing

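In limma, 0 highly methylated CpGs were called in any comparison under any alternative run. The smallest adjusted p among them was 0.0294, with age and without the variance trend, at a difference under 25 points, and it ran from 0.164 to 0.788 with age under the other alternatives. Over all CpGs tested, calls appeared without the variance trend (120 with age, 26 with housing and 92 between Aged ENR and Young STD mice) and with all groups in 1 fit (34 with age and 39 between Aged ENR and Young STD mice), none of them highly methylated. Under each alternative the differences in the class mean and in losses moved from the values reported by less than 1 pooled SD of the mice except as follows. The median over CpGs differed by 2.08 points with age and 2.14 points between Aged ENR and Young STD mice, and losses between Aged ENR and Young STD mice differed by -0.713 points in series 37. The share of CpGs with an unadjusted p under 0.05 was 7.48% with age in series 27, 3.14% with housing in series 37, and, between Aged ENR and Young STD mice, 6.42% in series 27 and 2.69% without the 5 libraries. With promoters of 2000 bases on either side, 9.80% lay in promoters, 28.6% in introns and 53.3% between genes, and over the first CpG of each run 7.05% lay in exons and 32.3% in introns. The cause of these shifts was not tested.

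With single mice left out, the class mean differed by -0.573 to 0.102 points with age, 0.461 to 1.14 with housing and 0.369 to 0.803 between Aged ENR and Young STD mice. Losses differed by 1.39 to 2.36, -1.65 to -0.618 (without Aged STD replicate 3, and -0.723 without Aged STD replicate 4) and 0.314 (without Aged ENR replicate 4) to 0.971 points. The shares at an unadjusted p under 0.05 ran from 3.28% to 4.79%, 1.77% to 2.32% and 3.36% to 4.76%. At a threshold of 90% the class mean differed by 0.350 points with age, 0.328 with housing and 0.678 between Aged ENR and Young STD mice, and losses by 0.760, -0.482 and 0.278 points. In the same order, the class mean differed by -0.943, 1.35 and 0.408 points at a threshold of 70%, by -0.844, 1.26 and 0.412 over CpGs measured in at least 3 mice of each group and by -0.743, 1.24 and 0.494 over the first CpG of each run, and losses by 2.85, -1.62 and 1.22 over the former CpGs and 2.41, -1.43 and 0.985 over the latter.

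Mice of the same replicate number did not deviate together (Pearson correlations over CpGs of -0.0935 to 0.0780), so the numbers were not used as pairs. Weak correlations cannot show that such mice shared no cage or litter. With a replicate block the class mean differed by 0.135, 0.865 and 0.292 points, losses by 2.19, -1.19 and 1.19 points, the shares at an unadjusted p under 0.05 were 5.06%, 2.22% and 4.38%, and 0 CpGs were called. Read numbers are unknown, so the counting error of single values could not be separated from differences between mice.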
